A study of Arabidopsis thaliana with 6 samples.

Results

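The genes described here are 61 protein-coding genes of Arabidopsis thaliana whose transcript levels were close together in 3 wild type arrays and spread widely over 3 ddm1 arrays. RNA came from unopened flower buds of wild type plants of the Columbia (Col) accession and of ddm1 mutants in inbred generation F6, raised on soil under 18-hour days at 23 °C. There were 3 biological replicates of each genotype, 1 array each, and the labels name no generation for the wild type plants, so loss of DDM1 and a history of inbreeding cannot be told apart. The labels name neither the ddm1 allele nor the number of plants behind a replicate, and the transcript of DDM1 itself was not analysed here and cannot serve to check the genotype labels. Each array measured 22746 probe sets other than controls, and a probe set is a group of short probes that together read 1 transcript. Of these, 12443 name a single protein-coding gene. The 61 are those with a standard deviation (SD) over 0.75 among the ddm1 arrays and under 0.3 among the wild type arrays on the deposited log2 scale, which is 0.49% of the protein-coding probe sets. All 61 were read by plain _at probe sets and belong to 61 different loci. Because the spread among the ddm1 arrays chose the genes, their values in these 6 arrays are a description and carry no test, and no array outside the choice was analysed here.

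DDM1 is a chromatin remodelling protein that keeps DNA methylation and the silencing of transposable elements in place, and lines that lack it gather changes over generations of inbreeding. Plant defence and stress genes are held low in undisturbed tissue and are switched on quickly by pathogens, wounding, touch, cold or reactive oxygen. Their products include chitinases, which cut the chitin of fungal walls, calmodulin-like proteins, which read calcium signals, and transcription factors of the WRKY and zinc finger families.

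The working name of the set was stress and defence genes, and the data bear on that name for a few members only. RefSeq gives a gene name for 12 of the 61 and a bare locus number for the other 49. The 10 lists of stress and defence genes, made up with earlier results of these data known, hold 201 different genes, of which 26 were measured by a probe set of their own. Of these 26, 4 met the SD limits, namely CHI, CML41, WRKY53 and STZ. These 4 had been given as examples together with the SD limits, so their count is no independent evidence for the name. None of the other 22 measured list genes was among the 61. The set is therefore called here the genes that varied among ddm1 replicates.

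As the rule requires, the variation lay in the ddm1 arrays. Among the 61 genes the median SD was 0.0541 in wild type and 1.01 in ddm1, whereas over all protein-coding probe sets the medians were 0.0631 and 0.0734. The highest and the lowest ddm1 array differed 3.77-fold at the median gene, 2.52-fold at the gene with the smallest range (UGT72E2) and 48.6-fold at that with the largest (CHI). With the genotypes exchanged in the rule, 11 protein-coding probe sets qualified, having an SD over 0.75 in wild type and under 0.3 in ddm1. In all, 72 protein-coding probe sets had a ddm1 SD over 0.75, and the 11 that were left out had a wild type SD of 0.3 or more. The count of 61 was 48, 110 and 71 when the ddm1 SD was taken without replicate 1, 2 and 3 in turn. Of the 61 genes, 31, 52 and 35 were among these, so which genes qualify depends on the arrays used.

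**Figure D1:**
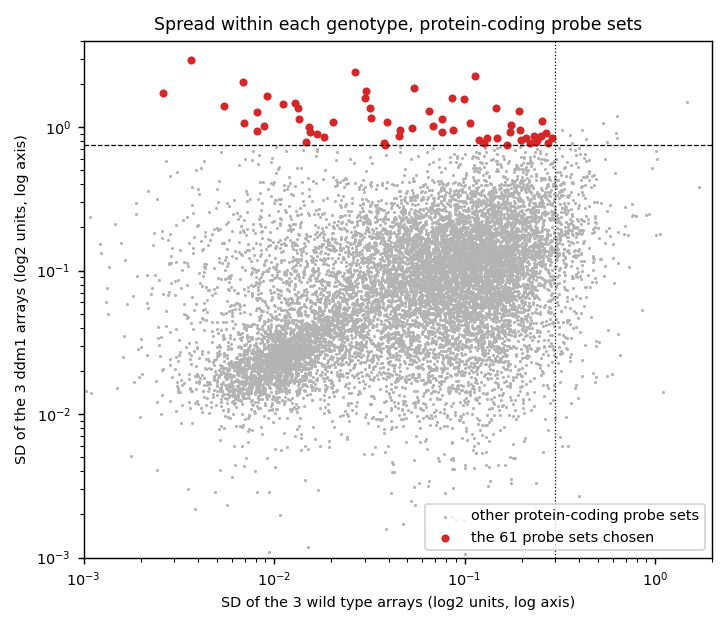
SD of the 3 wild type arrays (horizontal, log axis) against SD of the 3 ddm1 arrays (vertical, log axis) for protein-coding probe sets, in log2 units. Red points are the 61 genes, above the dashed line at 0.75 and left of the dotted line at 0.3. Their wild type SDs run from 0.00261 to 0.287. The 105 probe sets with an SD under 0.001 in either genotype lie outside the axes.

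The plot of SD in one genotype against SD in the other shows that the 61 genes were not those closest to the wild type limit. Of the 61, 29 had a wild type SD under 0.05. The deposited values are centred for each probe set and hold no level, so whether such flat wild type values lie at background is unknown.

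At the limits the choice is a matter of degree. Just inside the ddm1 limit lay AT5G35735 (ddm1 SD 0.752), AT5G22530 (0.753) and UGT72E2 (0.771), and just outside lay AT5G49180 (0.747), AT4G08850 (0.73) and AT1G23840 (0.728). Just inside the wild type limit lay AT1G13970 (wild type SD 0.287), UGT72E2 (0.273) and AT5G19240 (0.266). Just outside it lay AMY1, an alpha-amylase gene (0.326), AT1G12070 (0.357) and the beta-glucosidase gene BGLU41 (0.368). AMY1 had log2 values of 2.06, 0.77 and 0.18 in ddm1 replicates 1, 2 and 3.

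The 3 ddm1 replicates followed the same order at most of the genes. Of the 61, 37 (60.7%) were highest in replicate 1, intermediate in replicate 2 and lowest in replicate 3. Replicate 1 was the highest array for 41 genes, replicate 2 for 14 and replicate 3 for 6, and replicate 3 was the lowest for 44. The remaining orders held 7 genes (2, 1, 3), 7 genes (2, 3, 1), 4 genes (1, 3, 2), 3 genes (3, 1, 2) and 3 genes (3, 2, 1), with the highest replicate named first. One component held 81.0% of the variance of the 61 genes among the ddm1 arrays, with weights of 0.65, 0.10 and -0.75 for replicates 1, 2 and 3. It thus set replicate 1 against replicate 3, with replicate 2 between them. The 3 centred values of each gene allow only 2 components, so the first always holds the larger share. The values were not scaled, so the genes with the largest spread weigh most in it.

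**Figure D2:**
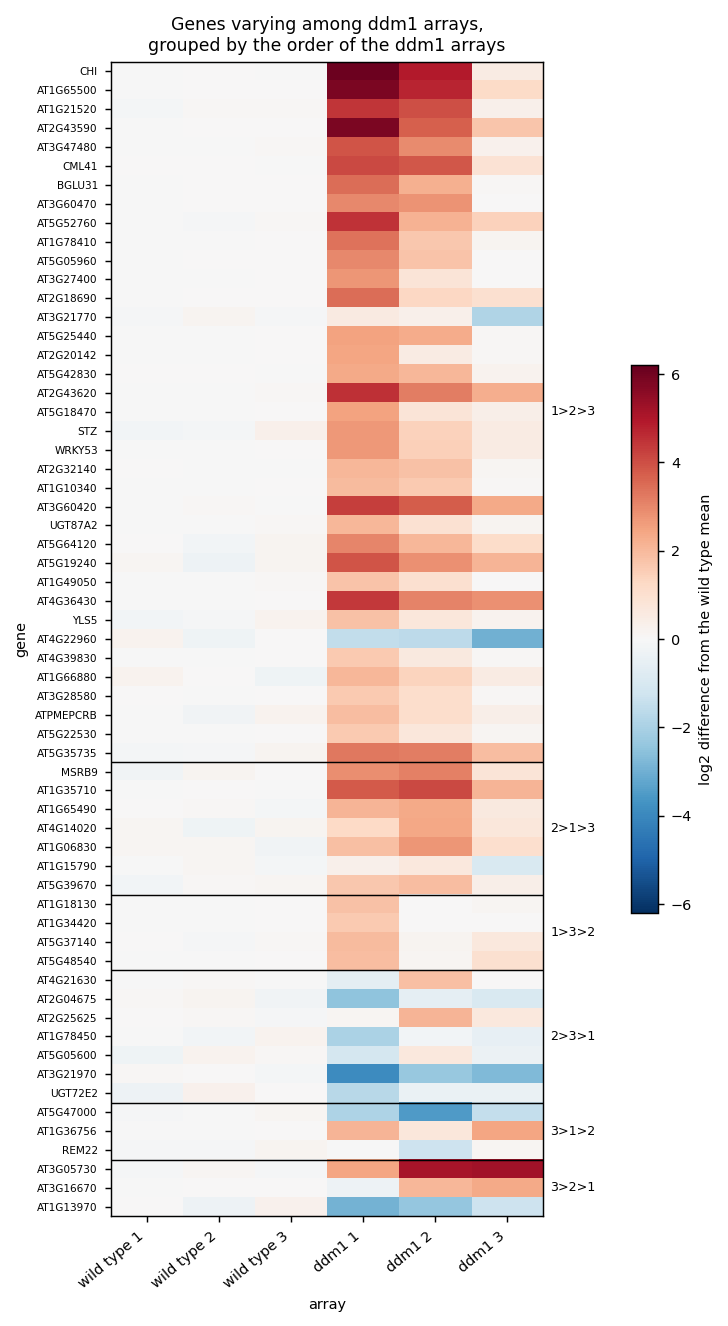
Log2 difference of each of the 6 arrays (columns) from the wild type mean for the 61 genes (rows), grouped by the order of the ddm1 arrays, highest first, and sorted by ddm1 SD within a group. The block of 37 genes at the top is darkest in replicate 1 and palest in replicate 3 except at AT3G21770 and AT4G22960, 35 of these 37 have a ddm1 mean above the wild type mean, and the blue rows are the genes with lower values in ddm1.

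The map of the 61 genes shows that the order belonged mainly to genes with higher values in ddm1. The ddm1 mean lay above the wild type mean at 50 genes and below it at 11. The order 1, 2, 3 was found at 35 of the 50 and at 2 of the 11. For the 50 genes, the median difference from the wild type mean was 2.46 on the log2 scale in replicate 1 (5.50-fold), 1.98 in replicate 2 (3.94-fold) and 0.49 in replicate 3 (1.41-fold). More than 2-fold above the wild type mean were 47 genes in replicate 1, 38 in replicate 2 and 14 in replicate 3. Replicate 3 lay within 0.3 log2 units of the wild type mean at 21 genes, replicate 2 at 5 and replicate 1 at 3.

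All 3 ddm1 arrays lay above all 3 wild type arrays at 45 of the 61 genes and below them at 6, beside 10.4% and 16.7% of all probe sets. The ddm1 values chose the genes, so nothing is read from this difference in shares. The wild type arrays did not follow the ddm1 order. Wild type replicate 3 was the highest of its group at 39 genes, replicate 2 at 15 and replicate 1 at 5, with 2 ties, all within an SD under 0.3. Orders of the wild type arrays were not counted over all probe sets, so nothing more is read from these counts.

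The defence genes with a known role are described first. CHI (AT2G43570), a putative chitinase gene, had log2 values of -0.01, 0.00 and -0.01 in wild type against 6.09, 4.92 and 0.48 in ddm1 replicates 1, 2 and 3. Replicates 1 and 2 stood 68.2-fold and 30.4-fold above the wild type mean, while replicate 3 stood 1.40-fold above it and still above every wild type array. The ddm1 mean was 3.83 ± 2.96 (SD, n = 3).

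CML41 (AT3G50770) encodes a calmodulin-like protein with a role in the immune response at the channels between cells. Wild type gave -0.11, -0.14 and -0.17, and ddm1 gave 3.93, 3.72 and 0.74. Replicates 1 and 2 were nearly equal, at 16.9-fold and 14.6-fold above the wild type mean, and replicate 3 was at 1.85-fold.

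WRKY53 (AT4G23810) encodes a transcription factor of leaf senescence and defence. It had values of -0.11, -0.12 and -0.08 in wild type compared with 2.57, 1.39 and 0.41 in ddm1, with replicate 2 about midway and every ddm1 array above the wild type arrays. In STZ (AT1G27730, also ZAT10), a zinc finger repressor gene of salt, cold and wound responses, wild type gave -1.15, -1.06 and -0.67 and ddm1 gave 1.74, 0.46 and -0.45. STZ and WRKY53 were alike in size, with replicate 1 at 6.50-fold and 6.38-fold, replicate 2 at 2.67-fold and 2.81-fold, and replicate 3 at 1.42-fold the wild type mean in both. The groups did not overlap in either gene, but STZ replicate 3 came within 0.3 log2 units of the highest wild type array.

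**Figure D3:**
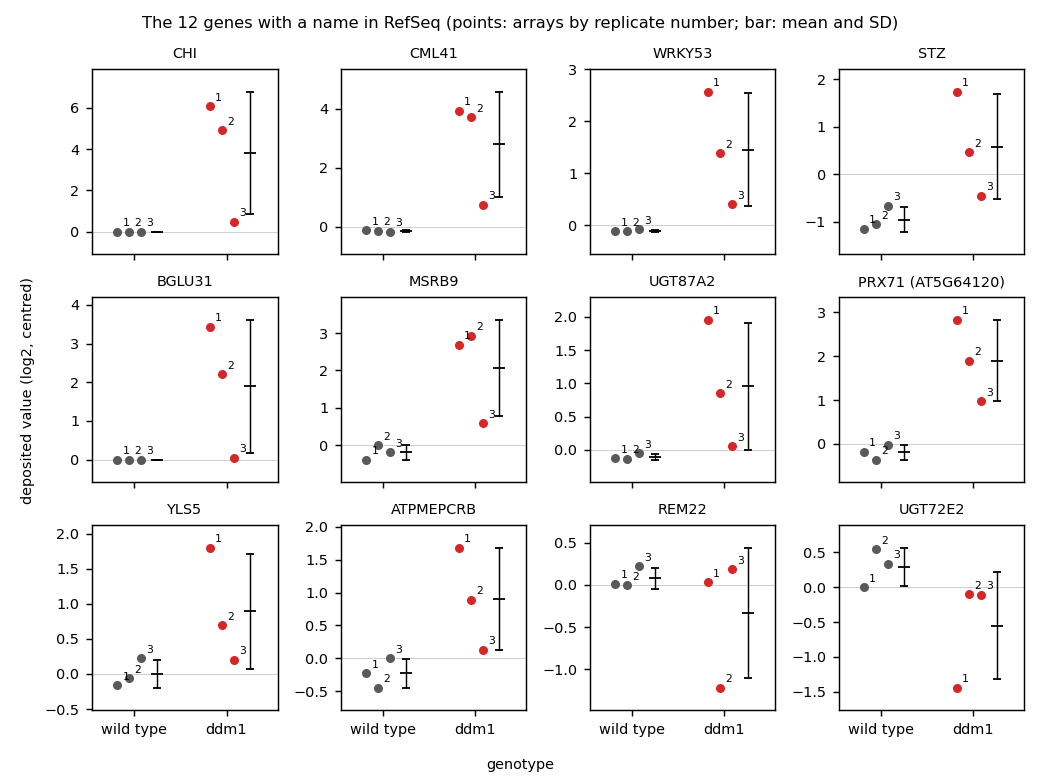
Deposited log2 values of the 12 genes that RefSeq names, by genotype, each panel with its own axis. Points are arrays marked with their replicate number, and the bar beside them is the mean with the SD of 3 arrays; in 9 of the 12 panels replicate 1 is highest and replicate 3 lowest in ddm1, the exceptions being MSRB9, REM22 and UGT72E2.

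Enzyme genes of the cell wall, of redox repair and of sugar conjugation made up most of the other named members. BGLU31, of the beta-glucosidase family, had values of -0.01, 0.00 and 0.00 in wild type against 3.44, 2.21 and 0.05 in ddm1, so that replicate 3 was almost at the wild type level. The peroxidase gene PRX71 (AT5G64120) had -0.18, -0.36 and -0.02 in wild type compared with 2.83, 1.89 and 0.97 in ddm1, with all 3 ddm1 arrays more than 2-fold above the wild type mean. MSRB9, a methionine sulfoxide reductase gene whose product repairs oxidised methionine, had -0.39, 0.00 and -0.18 in wild type against 2.69, 2.93 and 0.59 in ddm1, and was one of the genes with replicate 2 on top. The plot of the 12 named genes shows these patterns side by side.

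UGT87A2, a glucosyltransferase gene, had -0.13, -0.13 and -0.05 in wild type compared with 1.96, 0.85 and 0.05 in ddm1. The pectin methylesterase gene PME41 (AT4G02330, listed as ATPMEPCRB) had -0.23, -0.44 and 0.00 in wild type against 1.68, 0.89 and 0.13 in ddm1. YLS5 (AT2G38860), a DJ-1 family gene, had -0.16, -0.06 and 0.22 in wild type compared with 1.80, 0.69 and 0.20 in ddm1. In UGT87A2 and PME41 all ddm1 arrays lay above the wild type arrays, whereas in YLS5 replicate 3 fell inside the wild type range.

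The other 2 named genes had 1 ddm1 array well below wild type. REM22, a member of the reproductive meristem family of B3 transcription factors, had 0.02, -0.01 and 0.22 in wild type against 0.03, -1.22 and 0.19 in ddm1, so replicate 2 alone stood apart. UGT72E2, whose product attaches glucose to lignin precursors, had 0.00, 0.54 and 0.33 in wild type compared with -1.44, -0.11 and -0.11 in ddm1, with replicate 1 the low array.

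Among the genes known by locus number, the most variable shared the pattern of CHI. AT1G65500 had wild type values of -0.05, -0.01 and 0.00 and ddm1 values of 5.81, 4.72 and 1.17. AT1G21520 had -0.20, 0.00 and 0.00 in wild type against 4.36, 3.95 and 0.25 in ddm1. AT3G47480 had -0.10, -0.08 and 0.00 in wild type compared with 3.86, 2.86 and 0.22 in ddm1. In all 3 genes replicate 3 was the lowest ddm1 array, within 2-fold of the wild type mean at AT1G21520 and AT3G47480 and 2.29-fold above it at AT1G65500. AT2G43590, which was also among the most variable, is given below with its neighbours.

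The genes differed in where replicate 2 fell. At the 37 genes with the order 1, 2, 3, replicate 2 lay at a median of 0.562 of the way from replicate 3 to replicate 1. It was nearer replicate 1 at 19 genes and nearer replicate 3 at 18, with positions from 0.124 to 0.94. AT5G25440, for example, had 2.47, 2.32 and 0.06 in the 3 ddm1 replicates, against 3.45, 1.27 and 0.96 at AT2G18690. Counted by a 2-fold difference from the wild type mean, 23 genes were above it in replicates 1 and 2 only, 12 in all 3, 11 in replicate 1 only and 2 in replicate 2 only. AT1G36756 was above it in replicates 1 and 3, and AT3G16670 in replicates 2 and 3.

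The group above 2-fold in all 3 replicates included AT2G43590, AT5G52760, AT2G43620, AT1G35710, AT3G60420 and AT4G36430. AT4G36430 had ddm1 values of 4.39, 3.06 and 2.80 against -0.04, -0.03 and 0.00 in wild type. AT1G35710 had 3.73, 4.04 and 2.03 against -0.10, -0.03 and -0.08. In both, the lowest ddm1 array was still far above wild type. The group above it in replicate 1 only included UGT87A2, YLS5, AT3G27400 (2.75, 0.81 and 0.03 in ddm1), AT2G20142 (2.44, 0.51 and 0.04) and AT1G34420 (1.63, 0.00 and 0.03). At AT1G34420 the wild type arrays had -0.01, -0.01 and 0.00, so replicates 2 and 3 were close to wild type.

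A few genes ran the opposite way. AT3G05730 had -0.19, -0.01 and -0.18 in wild type against 2.32, 5.01 and 5.09 in ddm1, which put replicates 2 and 3 at 35.1-fold and 37.2-fold and replicate 1 at 5.46-fold the wild type mean. AT3G16670 had -0.02, 0.00 and 0.00 in wild type compared with -0.31, 2.04 and 2.35 in ddm1. At these genes replicate 1 was the low array, so replicate 3 was not simply the array with the smaller difference from wild type throughout. AT2G25625 (0.09, 2.05 and 0.61 in ddm1) and AT4G21630 (-0.69, 1.80 and -0.03) were highest in replicate 2.

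Of the 11 genes with a lower mean in ddm1, 4 were more than 2-fold below the wild type mean in all 3 ddm1 arrays. AT3G21970 had 0.23, 0.18 and 0.00 in wild type against -3.78, -2.21 and -2.60 in ddm1. AT5G47000 had -0.07, 0.00 and 0.14 in wild type compared with -1.87, -3.48 and -1.45 in ddm1. AT1G13970 (-2.89, -2.38 and -1.25 in ddm1) and AT4G22960 (-1.26, -1.37 and -2.73) were the other two. Each of these 4 had a different order of the ddm1 replicates. In another 4, AT2G04675, AT1G78450, AT5G05600 and UGT72E2, only replicate 1 was more than 2-fold below, in REM22 only replicate 2, and in AT3G21770 only replicate 3 (0.66, 0.43 and -1.80 in ddm1). AT1G15790 had ddm1 values of 0.34, 0.66 and -0.92 and a mean equal to that of wild type to 2 decimals.

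Some of the genes lie next to each other, a property that the SD limits did not use. Within 10 loci of each other in the RefSeq gene order lay 6 pairs, made of 9 genes. Such pairs were not counted for protein-coding probe sets in general, so no clustering is read from them. CHI, AT2G43590 and AT2G43620 form 3 of the pairs. AT2G43590 had -0.01, -0.01 and 0.00 in wild type against 5.83, 3.68 and 1.73 in ddm1, and AT2G43620 had -0.37, -0.37 and -0.23 in wild type compared with 4.22, 2.85 and 1.95 in ddm1. All 3 genes shared the order 1, 2, 3, but replicate 3 was 1.40-fold the wild type mean at CHI, 3.34-fold at AT2G43590 and 4.83-fold at AT2G43620.

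The 3 other measured loci between them did not share the pattern. AT2G43580 and AT2G43600 were flat, with ddm1 SDs of 0.0168 and 0.0217. AT2G43610 was low in all ddm1 arrays, at -3.02, -3.18 and -2.90 against 0.32, 0.61 and 0.00 in wild type, with a ddm1 SD of only 0.138. Within one stretch of neighbouring loci there were thus genes that were high and varied among ddm1 replicates, a gene that was low and varied little, and flat genes.

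AT1G65490 and AT1G65500 are direct neighbours, and AT1G65490 had 1.90, 2.14 and 0.37 in ddm1, high like AT1G65500 in replicates 1 and 2. The next locus, AT1G65510, had 0.09, 0.42 and 0.03. AT3G60420 and AT3G60470 make up another pair. AT3G60470 had ddm1 values of 2.97, 2.76 and 0.03 and AT3G60420 had 3.28, 2.76 and 1.37. AT3G60420 was also read by another probe set, and that one was flat, with ddm1 values of -0.02, 0.02 and 0.06, so the probe sets of this gene disagree. In the last pair the genes went opposite ways, with AT1G78410 at 3.32, 1.64 and 0.12 and AT1G78450 at -1.97, -0.16 and -0.51 in ddm1.

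Over the genome the 61 genes were spread much like the protein-coding probe sets in general. Chromosomes 1 to 5 held 16, 10, 11, 8 and 16 of them, or 26.2%, 16.4%, 18.0%, 13.1% and 26.2%, against 26.2%, 15.3%, 20.4%, 14.4% and 23.2% of all protein-coding probe sets. One gene, AT1G36756, lay in a window of 25 loci with 50% or more of them pseudogene-type, the RefSeq class that takes in transposable element genes, and 1.48% of protein-coding probe sets lay in such windows.

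The order of the replicates was then set beside that in other classes of probe sets. Among probe sets unnamed here, 62 met the same SD limits, and 39 of them (62.9%) had the order 1, 2, 3, with 84.9% of their variance on 1 component. Their medians were 2.02, 1.23 and 0.26 log2 units above the wild type mean in ddm1 replicates 1, 2 and 3. The same limits on the same arrays chose these probe sets and the 61 genes. They are therefore no separate replicates and no independent evidence for the order. Protein-coding probe sets with a ddm1 SD from 0.3 to 0.75 and the same wild type limit numbered 650. Of these, 174 (26.8%) had this order, and their first component held 63.7% of their variance.

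**Figure D4:**
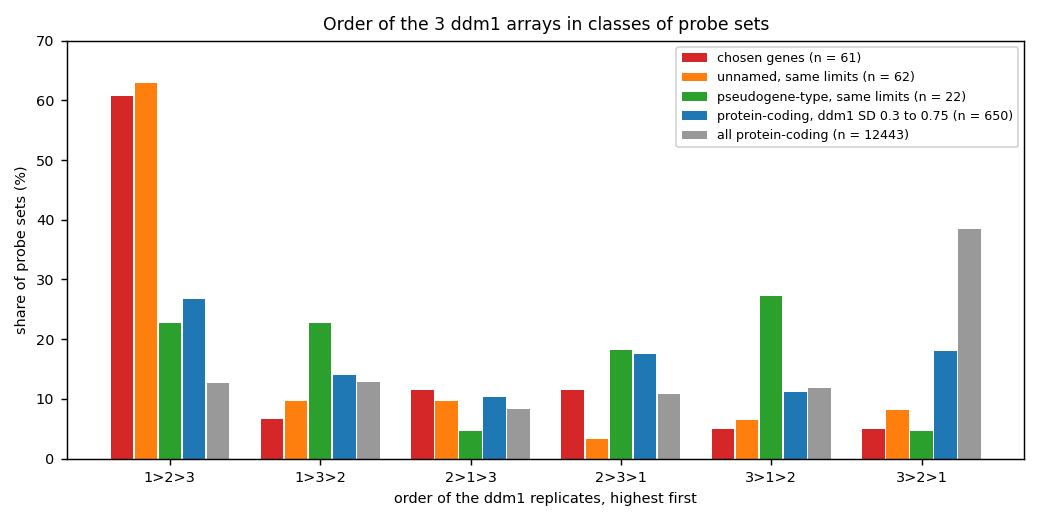
Share of probe sets (percent, vertical axis from 0) with each order of the ddm1 replicates, highest first, in 5 classes of probe sets. The order 1, 2, 3 holds 60.7% of the 61 genes and 62.9% of the 62 unnamed probe sets, but 22.7% of the 22 pseudogene-type probe sets and 12.6% of all protein-coding probe sets (1562 of them, or 2168 with arrays centred on their median).

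The chart of orders by class shows a different mix in the remaining classes. Pseudogene-type probe sets within the same SD limits numbered 22, of which 5 had the order 1, 2, 3. Their medians above wild type were 1.91, 1.51 and 2.17 in replicates 1, 2 and 3, and their first component held 59.8% of their variance. The 212 pseudogene-type probe sets called at least 2-fold higher in ddm1 by limma had a median ddm1 SD of 0.206. Their medians were 4.85, 4.56 and 4.84 log2 units above wild type in replicates 1, 2 and 3. The call favours probe sets whose ddm1 arrays agree, so nothing is read from these near-equal medians. Over all 12443 protein-coding probe sets 1562 (12.6%) had the order 1, 2, 3 and 4773 (38.4%) the order 3, 2, 1. After each array was centred on its median these counts were 2168 and 3966.

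The 22 other measured genes of the stress and defence lists had a median ddm1 SD of 0.128, compared with 0.0734 over all protein-coding probe sets. Of these 22, 4 had a ddm1 SD over 0.3, and 3 had the order 1, 2, 3. SAG101, whose product works with the immune regulators EDS1 and PAD4, had ddm1 values of 1.22, 0.68 and 0.04 against -0.04, -0.02 and 0.00 in wild type, the pattern of the 61 at an SD of 0.588. GRX480, a glutaredoxin gene of the salicylic acid response, was highest in replicate 2 and had a ddm1 SD of 0.577. EFR, the receptor for a bacterial elongation factor, was high in replicate 1 only, at 0.82, 0.00 and 0.04. WRKY22 and WRKY6 had ddm1 SDs of 0.0166 and 0.0939, PUB22, PUB23 and PUB24 of 0.0159 to 0.0336, and CML37 of 0.0235. Among the cold genes COR15A, COR15B and COR47 the ddm1 SD was 0.194 to 0.218. CML42 and CML23, calmodulin-like genes like CML41, had lower values in ddm1, with -1.27, -0.59 and -0.92 and with -0.65, -0.17 and -0.17. By limma, which called 3.5% of all probe sets higher and 5.68% lower, 0 of the 26 measured list genes were called higher in ddm1 and 1 lower, with 4 higher and 2 lower at an unadjusted p under 0.05 (8.49% and 14.6% of all probe sets). The 4 are CHI, CML41, WRKY53 and STZ, which were chosen on these same values, so nothing is read from their count. The gene called lower was CML42 (difference -1.14, adjusted p = 0.0493), and its call was lost in each fit that left out 1 array (adjusted p from 0.0573 to 0.131). The median difference was 0.08 over the 26 and 0.00 over all probe sets. By list, measured genes numbered 1 of 23 rapid stress factors, 3 of 26 WRKY, 7 of 16 touch and calcium, 3 of 25 salicylic acid and 5 of 32 pattern-triggered immunity genes. It was 1 of 27 for jasmonate, 3 of 17 for cold and abscisic acid, 2 of 10 for heat shock, 1 of 14 for oxidative stress and 0 of 12 for NLR immune receptors.

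Markers of tissues and of harvest state were set beside the order. The 6 marker lists hold 60 genes, of which 21 were measured, and because the values are centred, presence or absence of a marker cannot be read from them. Summed over 9 of 12 pollen genes, the log2 values were 0.14 to 0.87 in the wild type arrays and -8.41, -6.55 and -6.50 in ddm1 replicates 1, 2 and 3. Over 3 of 9 tapetum genes they were 0.44 to 1.00 in wild type and -3.12, -1.97 and -2.38 in ddm1. Replicate 1, the highest array at most of the 61 genes, thus had the lowest pollen and tapetum sums, while replicates 2 and 3 had nearly equal pollen sums. Single genes carried much of these gaps: without VEX1 the pollen sums in ddm1 were -4.12, -3.58 and -3.36, and without SPL the tapetum sums were -2.04, -1.78 and -1.73. Replicate 1 was the lowest ddm1 array at 6 of the 9 pollen genes and 2 of the 3 tapetum genes. Over all protein-coding probe sets the orders with replicate 1 lowest held 10.8% (2, 3, 1) and 38.4% (3, 2, 1), so nothing is read from these counts. The sums over 4 of 9 green tissue genes were -0.48 to -0.19 in wild type and 0.34, 0.79 and 0.52 in ddm1, and over 3 of 12 floral organ genes -0.38 to 0.00 in wild type and -0.06, 0.15 and 0.15 in ddm1. Of the 6 senescence genes only SAG29 was measured, at 0.66, 0.46 and 0.00 in wild type against -0.91, -0.70 and -0.81 in ddm1. Of the 12 clock genes only GI was measured, at -0.11, 0.05 and -0.06 in wild type compared with 0.05, 0.00 and -0.01 in ddm1. The part of tissue makeup or harvest state in the order of the replicates was not tested. In bulk tissue, fewer cells of a type and less RNA per cell cannot be told apart.

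The comparison of mean levels between the genotypes is of limited use for genes picked for their spread, since the rule sets the spread that the test divides by. With limma and Benjamini-Hochberg adjustment over all probe sets, 7 of the 61 genes were called higher and 3 lower in ddm1 at an adjusted p under 0.05, beside 3.5% and 5.68% of all probe sets (9.17% in either direction). Nothing is read from these shares. The genes called higher were AT3G05730, AT2G43620, AT1G35710, AT3G60420, AT5G19240, AT4G36430 and AT5G35735, and those called lower were AT1G13970, AT4G22960 and AT3G21970. CHI, CML41, WRKY53 and STZ were not called, their ddm1 minus wild type differences being 3.84, 2.94, 1.56 and 1.54 with adjusted p-values of 0.202, 0.123, 0.168 and 0.186. Without ddm1 replicate 1, 2 or 3, 10, 5 or 29 of the 61 were called, beside 1702, 1475 or 1738 of all 22746 probe sets. Replicate 3 was the lowest ddm1 array at 44 of the 61, so leaving it out removes much of the spread that chose them. Nothing is read from the rise to 29. Without wild type replicate 1, 2 or 3 the count among the 61 was 1, 1 or 3, beside 1061, 1260 or 1285 of all probe sets.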

How the data were processed

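GCRMA was the authors' method, per the submitters' processing notes, which give no version. Values were deposited as log2, centred for each probe set on an unstated baseline. The log base was inferred from GCRMA and the range of -10.0 to 8.57, and the median of the 6 arrays is 0 in only 12.5% of probe sets. Centring keeps differences between arrays and removes levels, and GCRMA compresses dim signals. Control probe sets (64) were left out, leaving 22746. GEO's platform annotation names 1 gene for 13513, several for 503 and none for 8730, and 13436 of the first have a RefSeq entry of TAIR10.1 under the same gene number. Array medians lay between -0.00642 and 0.0175, and the number of arrays limits the precision.

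Members and lists were chosen with earlier results of these data known. Order and variance shares were computed in Python 3.11.15 (numpy 2.4.6, pandas 2.3.3), and variance shares come from the 3 ddm1 values of each gene after subtraction of their mean. The genotype comparison used limma 3.58.1 under R 4.3.3 (lmFit, eBayes, genotype only, two-sided), tested on simulated data. Named genes came from those with a RefSeq name or in a list, the 20 with the largest ddm1 SD, and those at the limits. Not all genes that fit this rule are described. Others were named after their values were seen. Alternatives were other limits, centring, the replicate block, array weights, variance models and leaving out arrays.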

Additional observations from a re-analysis of the deposited data

How the results depend on the processing

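The stricter limits tried pick subsets of the 61 genes, so a like share with the order 1, 2, 3 was largely fixed. With a ddm1 SD over 1.0, 31 genes qualified and 23 of them (74.2%) had the order 1, 2, 3. With a wild type SD under 0.2, a range in place of the SD, or arrays centred on their median, 51, 56 and 61 genes qualified and 32, 34 and 37 had it. All 61 are plain _at probe sets. Leaving out 1 array gave 48 to 110 genes, of which 31 to 59 were among the 61. With the limits exchanged between the genotypes, chosen after seeing the data like the omission of a ddm1 array, 11 qualified.

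The comparison of genotypes called 2086 probe sets, and 986 with the replicate block, 802 without variance moderation, 5782 with array weights, 1805 with a trended and robust variance model, 1903 with arrays centred on their median and 1061 to 1738 with 1 array left out. Among the 61 genes limma called 10. The replicate block called 0, the ordinary linear model without moderation 0 and array weights 42. The trended and robust model called 9, median centring 8, and leaving out 1 array 1 to 29. The rule chose the 61 on these same values, so nothing is read from these counts. The cause of the differences between fits was not tested. For the 10 called genes and CML42, 68 of 121 values under these alternatives lost the call and 53 kept it. For 27 of the uncalled named genes, 32 of 297 values gained a call and 4 uncalled ones changed sign. The other uncalled named genes, PRX71 among them, were not followed in this way. None of these values reversed past the threshold. Deviations of same-numbered arrays from their group means gave correlations of 0.0752, 0.0900 and 0.0159 for replicates 1, 2 and 3. Differently numbered arrays gave -0.0907 to 0.0229, below the values of replicates 1 and 2. All these values are small and no pairing is stated, so the main fit did not pair the arrays. Whether the numbers pair them is unknown. A filter on dim probe sets was not run, as the values hold no level.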
